A study of Mus musculus with 12 samples.

Results

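RNA-seq from mouse CD8+ T cells was used to follow 10 transcription factors that are known to set the choice between effector and memory fate: Tcf7, Lef1, Id2, Id3, Tbx21, Eomes, Prdm1, Bcl6, Zeb2 and Bach2. The genes were taken by symbol, and all 10 were found once among the 55536 annotated genes of the count table and passed the filter on low counts that left 18817 genes. The cells were OT-I CD8+ T cells, whose transgenic receptor recognizes the ovalbumin peptide SIINFEKL, on a C57BL/6J background. The study's methods describe the donors as Rag1- or Rag2-deficient. Of 12 libraries, 2 came from naive OT-I mice whose cells were never transferred (Naive). The other 10 came from OT-I cells moved into C57BL/6J recipients, which received the peptide with control rat IgG (Ag, 5 libraries) or the peptide with agonist antibodies to CD134 (OX40) and CD137 (41BB) (Ag+Costim, 5 libraries). Transferred cells were taken from spleen and lymph nodes after 4 days by the labels, and the methods give a slightly shorter interval. The Naive cells therefore differed from both other groups in antigen and in transfer, which cannot be told apart.

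CD8+ T cells that meet antigen divide and then follow different courses. Some become short-lived effector cells that kill infected targets, and others keep the capacity to persist and divide again as memory cells. Tcf7 (which encodes TCF-1) and Lef1 are related DNA-binding factors of naive and memory cells. Id2 and Id3 cannot bind DNA; they pair with E proteins such as Tcf3 and Tcf12 and keep them from their sites, Id2 being tied to effector and Id3 to memory cells. Tbx21 (T-bet) and Eomes are T-box factors of effector and memory programmes, and Zeb2 acts with T-bet in terminal effector cells. Prdm1 (Blimp-1) and Bcl6 repress each other, with Blimp-1 on the effector side, and Bach2 restrains effector genes.

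Costimulation changed nearly the whole group. Between Ag+Costim and Ag, 9 of the 10 factors passed an adjusted p below 0.05 (5 higher and 4 lower), where 53.1% of all tested genes passed (26.6% higher and 26.5% lower). Prdm1 rose most, 18.9-fold, followed by Tbx21 (4.06-fold), Eomes (3.23-fold), Bcl6 (3.03-fold) and Id2 (2.65-fold). Id3 fell 4.87-fold, Bach2 2.67-fold, Tcf7 2.35-fold and Lef1 2.23-fold, and Zeb2 alone did not pass. Antigen without costimulation gave a different picture against Naive: 6 factors passed (3 higher and 3 lower, beside 46.7% of all genes, 24.2% higher and 22.5% lower), with Id3, Tbx21 and Eomes higher and Lef1, Bcl6 and Bach2 lower. Between Ag+Costim and Naive, 7 passed (4 higher and 3 lower, beside 52.3% of all genes, 26.9% higher and 25.4% lower). The first and the second comparison share the Ag libraries, and the 3 comparisons share libraries pairwise, so they are not independent of each other. With upper-quartile scaling, the split of all called genes between Ag+Costim and Ag moved from 5006 higher and 4979 lower to 4056 and 6338, with a median over all genes of -0.245 on the log2 scale in place of -0.0488. The 9 calls kept their directions under that scaling. The sizes for the scarce factors depended on the scale: on log2(FPKM + 1), which understates low genes, the log2 fold change was 2.04 in place of 4.24 for Prdm1 and 0.69 in place of 1.60 for Bcl6 with costimulation, and -1.31 in place of -2.29 for Bcl6 between Ag and Naive. On the log2(FPKM + 1) scale the split between Ag and Naive was 3602 higher and 5795 lower, in place of 4559 and 4233, and that between Ag+Costim and Naive was 3983 and 6709, in place of 5066 and 4778. Deviations of log2 CPM sloped with log2 gene length, by -0.126 to -0.0448 in Ag and 0.0437 to 0.103 in the other libraries. With a length correction, Naive to Ag gave -0.98 for Lef1 (in place of -1.43) and -0.98 for Bach2 (-1.48). The step with costimulation gave -1.5 for Lef1 (in place of -1.16) and -1.74 for Bach2 (-1.42). These calls held.

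**Figure D1:**
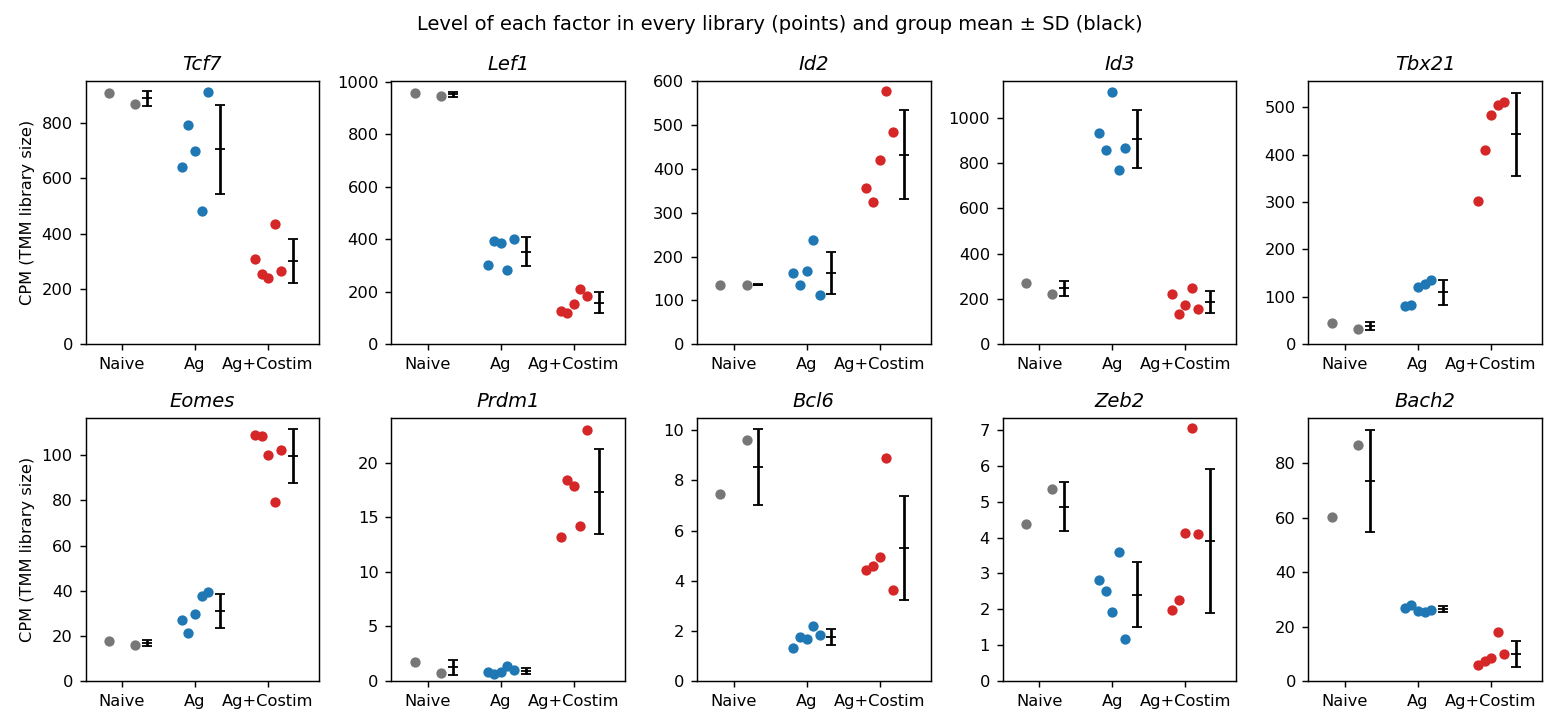
Each panel shows 1 factor in CPM (counts scaled to library size, linear axis from 0) for the 2 Naive, 5 Ag and 5 Ag+Costim libraries as points, with the group mean ± SD in black. The Ag and Ag+Costim points of Zeb2 overlap, and those of the other factors lie apart. How many of all tested genes lie apart in this way was not counted, and 53.1% of them passed the test.

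The libraries held 24006053 counts in Ag 4 and 40028682 to 49294934 in the others. Cd3 and Cd8 genes were abundant everywhere (summed 5581 to 6082 CPM in Naive, 5870 to 8490 in Ag and 3288 to 4471 in Ag+Costim). Transferred cells were sorted, by the study's gating description, as live CD8+ cells with the OT-I receptor chains and the donor form of CD45, a gate that would remove B cells, myeloid cells and the recipients' own T cells. Markers of other cells were still counted. The 6 myeloid markers summed to 23.9 to 49.0 CPM in Naive, 46.0 to 166 in Ag and 98.7 to 259 in Ag+Costim, and the 5 B cell markers to 27.2 to 29.7, 108 to 155 and 22.5 to 57.7, with Pax5 at 0 in both Naive libraries. The 4 plasma cell markers summed to 79.2 to 82.6, 108 to 165.5 and 187 to 248 CPM, mostly Xbp1. The 4 hemoglobin genes ranged from 149 to 2053 CPM in Naive, 623 to 6324 in Ag and 14.3 to 219 in Ag+Costim, and the 4 NK cell markers from 13.7 to 15.5, 7.6 to 21 and 1.22 to 4.05. The 3 CD4 T cell markers stayed between 1.30 and 8.35 CPM in all libraries. The 5 proliferation genes rose with the groups (30.4 to 31.7, 437 to 889 and 1851 to 2330 CPM). The part of these other cells and of division in the values below was not tested, and in bulk RNA fewer cells of a type and less RNA per cell cannot be told apart.

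Because several of the factors act at short DNA sequences, the promoters of the 10 genes were searched on both strands for 4 of them: the E-box CAGGTG of E proteins and Zeb-family repressors, CTTTGAT and the shorter CTTTGA contained in it, of TCF-1 and LEF-1, and TCACACC, of T-box factors. The 10 genes had 18 RefSeq promoters of 300 bases on GRCm38.p6, each reaching from 250 bases before the start to 50 after it. The E-box was found in 4 of these 18 promoters, 1 each of Tcf7, Lef1, Tbx21 and Prdm1, and in 20.2% of all 32851 such promoters. Counted by gene, 22.6% of 27025 genes had it in at least 1 promoter. CTTTGA was found in 3 of the 18, 1 each of Lef1, Bcl6 and Bach2, and in 16.0% of all promoters (18.2% of genes). CTTTGAT and TCACACC were in none of the 18 and in 3.73% and 3.98% of all promoters. These shares are near the background, and nothing is read from them. The E-box windows are printed because it had the most matches, a choice made after the matches were seen, and a match describes these letters and is not a measured site. The windows are chr11:52282546-52282575 (minus strand, 39 bases downstream of the start) for Tcf7, chr3:131110341-131110370 (plus strand, 30 bases downstream, with the E-box on the opposite strand) for Lef1, chr11:97115510-97115539 (minus strand, 196 bases upstream) for Tbx21 and chr10:44458818-44458847 (minus strand, 87 bases upstream) for Prdm1. The E-box is in capitals.
Tcf7: ctccgcctcccctccagccCAGGTGactga
Lef1: ggcgcaaccgctCACCTGcggggcagcgcg
Tbx21: gtttcagagtttCAGGTGgcaggttgactc
Prdm1: ggctgggctggcCAGGTGcggccacgcccc

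The first question was what became of Tcf7 and Lef1, the factors of the naive state. Tcf7 (chr11:52252371-52283014, minus strand, mm10) stood at 908 and 869 CPM in the Naive libraries, at 640.0, 792, 699, 481 and 910.5 CPM in Ag 1 to 5, and at 308, 255, 239.8, 435 and 264 CPM in Ag+Costim 1 to 5. Every Ag+Costim library was below every Ag library, whereas Ag reached up into the Naive range. Tcf7 fell by 1.23 on the log2 scale between Ag+Costim and Ag (SE 0.18, edgeR adjusted p = 7.54e-05), and the step from Naive to Ag did not pass (log2 fold change -0.33, SE 0.24, edgeR adjusted p = 0.266). Lef1 (chr3:131110471-131224356, plus strand) stood at 958 and 945 CPM in Naive, at 303, 392, 387, 281 and 402 CPM in Ag, and at 127, 117, 152, 209 and 185 CPM in Ag+Costim. Its 3 groups did not overlap. Lef1 fell by 1.43 (SE 0.20, edgeR adjusted p = 6.36e-05) from Naive to Ag and by a further 1.16 (SE 0.16, edgeR adjusted p = 3.87e-05) with costimulation. Against Naive, the Ag+Costim cells held 6.01-fold less Lef1 and 2.96-fold less Tcf7.

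Partners of these factors were counted as well, beside 46.7% of all tested genes that passed between Ag and Naive and 53.1% with costimulation. Of 6 genes for beta-catenin and Groucho-type corepressors, which bind TCF-1 and LEF-1, 4 were lower and none higher in Ag than in Naive, and with costimulation 3 were higher and 1 lower (medians over the list -0.97 and 0.84 on the log2 scale). Ctnnb1, which encodes beta-catenin, went from a mean of 197.5 CPM in Naive to 130.2 in Ag and 293 in Ag+Costim, a log2 fold change of 1.17 (SE 0.08) with costimulation. Tle3 went from 48.4 to 19.3 and 60.8 CPM. Tle4 was the 1 that was lower with costimulation, at 39.1 CPM in Ag and 18.8 in Ag+Costim (log2 fold change -1.06, SE 0.11). Tle2 was near the detection limit after activation (0.173 CPM in Ag and 0.255 in Ag+Costim, from 6.44 in Naive).

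Id2 and Id3 moved in opposite directions with costimulation. Id3 (chr4:136143497-136145755, plus strand) stood at 271 and 221 CPM in Naive, at 934, 857, 1114, 771 and 866 CPM in Ag, and at 223, 132, 173, 246 and 157 CPM in Ag+Costim. All 5 Ag libraries lay above both other groups, and the Ag+Costim libraries overlapped Naive. Id3 rose by 1.88 on the log2 scale from Naive to Ag (SE 0.24, edgeR adjusted p = 2.61e-05) and fell by 2.29 from Ag to Ag+Costim (SE 0.17, edgeR adjusted p = 1.55e-07). Against Naive, Ag+Costim differed by -0.40 (SE 0.21, edgeR adjusted p = 0.12), which did not pass but did so without Ag+Costim 4 (-0.51, edgeR adjusted p = 0.0379), with upper-quartile scaling (-0.55) and on both log2 FPKM scales (-0.65 and -0.66). Id2 (chr12:25093799-25097140, minus strand) stood at 136 and 134 CPM in Naive, at 162, 135, 167, 239 and 113 CPM in Ag, and at 357, 325, 420.0, 578 and 484 CPM in Ag+Costim. The Naive values lay inside the Ag range and all Ag+Costim libraries lay above it. Id2 rose by 1.41 with costimulation (SE 0.20, edgeR adjusted p = 3.98e-05), and by 0.27 from Naive to Ag (SE 0.26, edgeR adjusted p = 0.414), which was within the spread between libraries.

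The E proteins that the Id factors bind changed as well. Of the 4 genes for E proteins or Id1, 3 were lower in Ag than in Naive and 3 were higher in Ag+Costim than in Ag. Of all tested genes, 22.5% were lower in the first and 26.6% higher in the second of these comparisons. Tcf3, which encodes E2A, stood at a mean of 152.4 CPM in Naive, 119 in Ag and 303 in Ag+Costim (log2 fold change 1.35 with costimulation, SE 0.11). Tcf12 went from 97.9 to 55.8 and 84.2 CPM, and Tcf4 from 12.1 to 5.92 and 13.5 CPM.

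The T-box factors rose in both steps. Tbx21 (chr11:97098071-97115331, minus strand) stood at 44.1 and 32.3 CPM in Naive, at 79.7, 83.3, 120.2, 128 and 135 CPM in Ag, and at 303, 410.5, 484, 505 and 511 CPM in Ag+Costim. Eomes (chr9:118478212-118486132, plus strand) stood at 17.6 and 15.9 CPM in Naive, at 26.8, 21.1, 29.5, 37.6 and 39.6 CPM in Ag, and at 109, 108, 100, 79.3 and 102 CPM in Ag+Costim. The 3 groups did not overlap for either gene. Tbx21 rose by 1.51 on the log2 scale from Naive to Ag (SE 0.26, edgeR adjusted p = 0.000364) and by 2.02 with costimulation (SE 0.19, edgeR adjusted p = 1.09e-06). Eomes rose by 0.88 (SE 0.22, edgeR adjusted p = 0.00445) and by 1.69 (SE 0.16, edgeR adjusted p = 1.22e-06). The first of these Eomes calls was lost without Naive 2 (0.81, edgeR adjusted p = 0.0603). Whether the step with costimulation was larger than the step with antigen was not tested.

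Zeb2 (chr2:44983632-45117395, minus strand), unlike the T-box factors, was scarce. It stood at 4.38 and 5.35 CPM in Naive, at 2.81, 2.51, 1.93, 3.60 and 1.18 CPM in Ag, and at 1.99, 2.26, 4.12, 7.05 and 4.10 CPM in Ag+Costim. Ag lay below Naive in every library, and Ag+Costim spread across both. No comparison passed: Ag+Costim differed from Ag by 0.70 (SE 0.36, edgeR adjusted p = 0.114) and from Naive by -0.32 (SE 0.46, edgeR adjusted p = 0.578), and Ag from Naive by -1.02 (SE 0.45, edgeR adjusted p = 0.0774). The last passed without Ag 4 (-1.21, edgeR adjusted p = 0.0422) and without Ag+Costim 4 (-1.03, edgeR adjusted p = 0.0426), with only both groups fitted (-1.02, edgeR adjusted p = 0.0498) and on the log2(FPKM + 1) scale (-0.57, limma adjusted p = 0.0398). With a correction for gene length it was -0.28 (edgeR adjusted p = 0.633). Without Ag+Costim 4 the difference from Ag was 0.40 (edgeR adjusted p = 0.324), and that from Naive -0.63 (edgeR adjusted p = 0.207). Ag 4 and Ag+Costim 4, the highest Zeb2 libraries of their groups, also had the highest myeloid marker sums of their groups (166 and 259 CPM). Naive 1 and Naive 2, with Zeb2 above every Ag library, had myeloid marker sums of only 49.0 and 23.9 CPM. The part of myeloid RNA in the Zeb2 values was not tested.

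**Figure D2:**
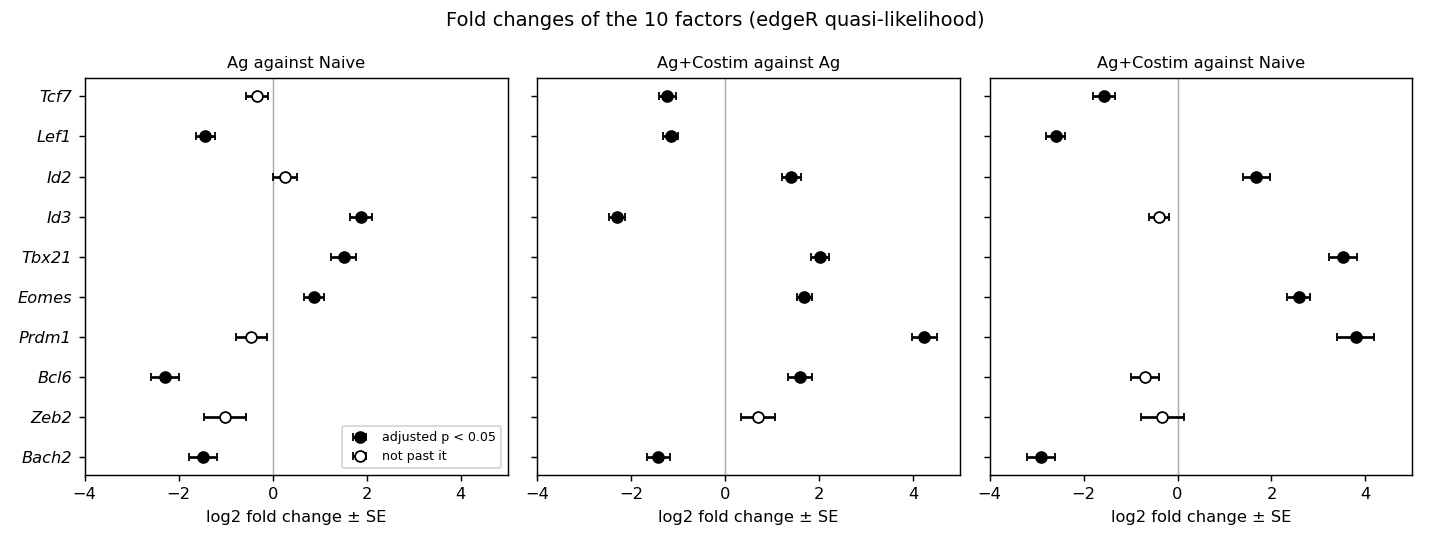
Points show the log2 fold change of each factor and bars its standard error in 3 comparisons, filled where the edgeR adjusted p was below 0.05. With costimulation only Zeb2 is open, Id3 lies farthest to the left (-2.29) and Prdm1 farthest to the right (4.24).

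Prdm1 and Bcl6, which repress each other, were both higher with costimulation. Prdm1 (chr10:44437177-44528501, minus strand) stood at 1.75 and 0.756 CPM in Naive, at 0.856, 0.649, 0.815, 1.34 and 0.986 CPM in Ag, and at 13.2, 18.4, 17.9, 14.2 and 23.0 CPM in Ag+Costim. In reads this was 29 to 41 counts per Ag library and 558 to 886 per Ag+Costim library. Naive and Ag overlapped, and every Ag+Costim library was far above both. Prdm1 rose by 4.24 on the log2 scale (SE 0.27, edgeR adjusted p = 5.97e-08) with costimulation, and the difference of -0.45 between Ag and Naive (SE 0.33, edgeR adjusted p = 0.292) did not pass and changed sign without Naive 1 (0.28, edgeR adjusted p = 0.628). Prdm1 is also a factor of plasma cells, and of the 4 plasma cell markers Irf4 and Xbp1 rose with costimulation, both of which activated T cells express. Sdc1 and Jchain did not pass with costimulation (0.601 to 1.38 CPM in Ag and 0.623 to 1.79 in Ag+Costim for Sdc1, and 4.39 to 47.0 and 3.04 to 75.4 for Jchain). Jchain was higher in both groups than in Naive (0 to 0.597 CPM). The part of plasma cell RNA in the Prdm1 values was not tested. Bcl6 (chr16:23965052-23988852, minus strand) stood at 7.47 and 9.62 CPM in Naive, at 1.32, 1.75, 1.68, 2.18 and 1.83 CPM in Ag, and at 4.43, 4.57, 4.93, 8.91 and 3.61 CPM in Ag+Costim.

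Bcl6 was thus lowest after antigen alone, and only Ag+Costim 4 reached the Naive range. It fell by 2.29 from Naive to Ag (SE 0.30, edgeR adjusted p = 3.38e-05) and rose by 1.60 from Ag to Ag+Costim (SE 0.25, edgeR adjusted p = 9.44e-05), by 1.35 without Ag+Costim 4 (edgeR adjusted p = 4.7e-05). Against Naive the Ag+Costim cells differed by -0.69 (SE 0.30, edgeR adjusted p = 0.07), which passed without Ag+Costim 4 (-0.95, edgeR adjusted p = 0.00358). It also passed with upper-quartile scaling (-0.84), on both log2 FPKM scales (-0.62 and -0.91) and with a covariate of Y-linked genes (-0.78). Bach2 (chr4:32238804-32586108, plus strand) stood at 60.3 and 86.9 CPM in Naive, at 26.7, 27.9, 25.8, 25.4 and 26.2 CPM in Ag, and at 5.81, 7.38, 8.25, 18 and 9.92 CPM in Ag+Costim. Its 3 groups did not overlap, and the Ag libraries lay close together (26.4 ± 0.95 CPM, SD, n = 5). Bach2 fell by 1.48 from Naive to Ag (SE 0.30, edgeR adjusted p = 0.00117) and by 1.42 with costimulation (SE 0.25, edgeR adjusted p = 0.00026), 7.46-fold over both steps. B cells also express Bcl6 and Bach2. The B cell marker sum was 27.2 to 29.7 CPM in Naive and 108 to 155 in Ag, a rise where Bcl6 and Bach2 both fell. It fell to 22.5 to 57.7 CPM in Ag+Costim, opposite to Bcl6 and in the direction of Bach2. The part of B cell RNA in these values was not tested.

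To set the factors beside each other, levels were compared per length as FPKM, fragments scaled to transcript length and library size. In Naive the order was Tcf7 (401 ± 10.4, SD, n = 2), Lef1 (353 ± 3.69), Id3 (218 ± 31.0), Id2 (123 ± 0.484), Tbx21 (16.9 ± 3.64), Bach2 (11.1 ± 3.33), Eomes (5.80 ± 0.505), Bcl6 (2.66 ± 0.494), Zeb2 (1.17 ± 0.00402) and Prdm1 (0.258 ± 0.147), with no overlap between neighbours over the 2 libraries. In Ag Id3 led (708 ± 72.8 FPKM, SD, n = 5), ahead of Tcf7 (286.5 ± 63.3). Id2 (129.8 ± 43.9) and Lef1 (121 ± 14.7) overlapped, as did Zeb2 and Bcl6 (0.488 ± 0.323 and 0.478 ± 0.102), and Prdm1 was last (0.173 ± 0.054). In Ag+Costim Id2 led (329.9 ± 77, SD, n = 5). Tbx21 (169 ± 32.6) and Id3 (141.5 ± 36.5) overlapped, and so did Id3 and Tcf7 (118 ± 31.0). Prdm1 had moved above Bcl6 (3.86 ± 0.659 against 1.42 ± 0.563). The order depended on how length was counted: with CPM per kilobase of all annotated exons, 15 of the 30 positions were the same, Lef1 stood lower in every group, and Tbx21 and Id2 exchanged the first place in Ag+Costim (177.9 and 177.5 CPM per kilobase).

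Ratios within a library do not depend on its scaling, but they do depend on how gene length is treated. The log2 ratio of Id2 to Id3, in FPKM, was -0.82 ± 0.20 in Naive (SD, n = 2), -2.50 ± 0.49 in Ag (SD, n = 5) and 1.23 ± 0.34 in Ag+Costim (SD, n = 5). It was above 0 in all 5 Ag+Costim libraries (0.69 to 1.64) and below 0 in all others. The ratio of Prdm1 to Bcl6 also changed sign, from -3.48 ± 1.14 in Naive and -1.49 ± 0.32 in Ag to 1.5 ± 0.63 in Ag+Costim, where it ran from 0.60 to 2.29. The ratio of Tcf7 to Lef1 overlapped between Ag and Ag+Costim (1.23 ± 0.19 and 1.11 ± 0.32) and was 0.19 ± 0.02 in Naive. With the length correction, the step with costimulation was -1.11 for Tcf7 and -1.5 for Lef1, in place of -1.23 and -1.16. Per kilobase of all annotated exons, Naive held 338.6 CPM of Tcf7 and 108.3 of Lef1, farther apart than by FPKM. Tbx21 to Eomes was 1.53 ± 0.19, 2.19 ± 0.19 and 2.53 ± 0.51, and the Ag (1.96 to 2.46) and Ag+Costim (1.77 to 3.12) libraries overlapped. These are descriptions with no test.

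**Figure D3:**
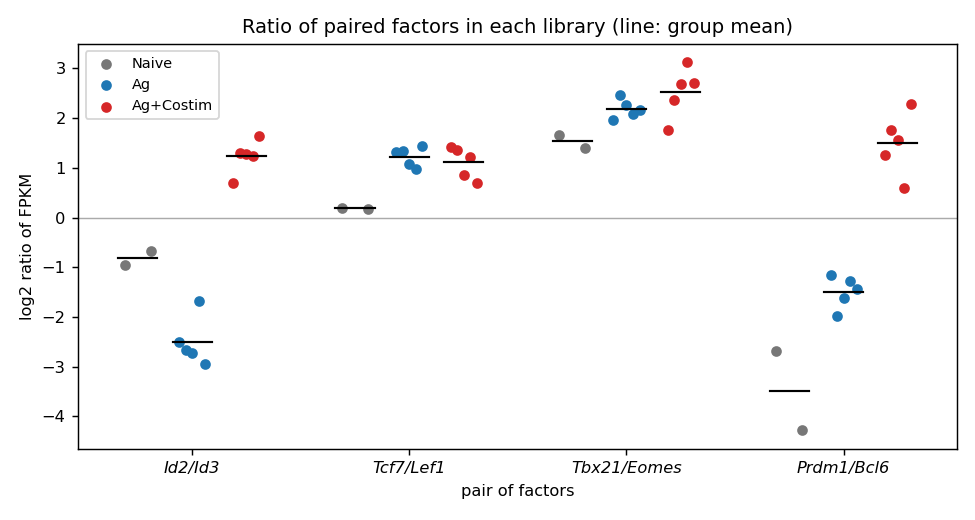
Points show the log2 ratio of FPKM of paired factors in each library by group, and lines the group means. Id2/Id3 and Prdm1/Bcl6 lie above 0 only in the 5 Ag+Costim libraries, while the Tcf7/Lef1 points of Ag and Ag+Costim overlap.

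Single libraries stood apart over several factors. Ag+Costim 4 had the highest value of its group for 7 of the 10 factors, which were Tcf7, Lef1, Id2, Id3, Bcl6, Zeb2 and Bach2, and the lowest Eomes. It also had the highest Itgax, a gene of dendritic cells that activated CD8+ T cells can express (141 CPM against 25.6 to 106 in the others of its group), and the lowest proliferation sum of its group (1851 CPM). Ag 4, the library with the fewest counts, had the lowest Tcf7, Lef1, Id3 and Bach2 of its group and the highest Id2, Prdm1, Bcl6 and Zeb2. The share of all genes with their extreme in these libraries was not counted, and the pattern is not particular to the factors. Over all tested genes, Spearman correlations of Ag 4 with its group were 0.966 to 0.969, against 0.977 to 0.982 among the rest. For Ag+Costim 4 they were 0.971 to 0.98, against 0.978 to 0.983. Without either library, the same 9 factors passed between Ag+Costim and Ag in the same directions.

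The transcripts of the factors were examined next, since splicing and transcript ends were the subject of the study. The share of a transcript among its gene's counts was tested for 32 transcripts of the factors. Between Ag+Costim and Ag 1 of them passed, Prdm1-202, beside 2.57% of 41844 transcripts in all. None passed between Ag and Naive, beside 1.66% of all transcripts. Prdm1-202 took 42.5, 33.9, 16.2, 50 and 42.2% of the Prdm1 counts in Ag+Costim 1 to 5 and was at 0 in all 5 Ag and both Naive libraries (edgeR adjusted p = 0.0053). It also met a stricter rule, added after the data were seen, that the shares of both groups not overlap, which 0.803% of all transcripts met. The Ag+Costim shares were all above 0, but the other groups had few Prdm1 counts to divide (29 to 41 per Ag library and 36 and 85 in Naive). By counting error only, 0 counts allowed a share of up to 7.32 to 10.3% in the Ag libraries and up to 3.53 and 8.33% in Naive, all below the lowest Ag+Costim share. The files assign counts to transcripts by model, and on simulated counts with the spread of these transcripts the test recovered few changed transcripts and called some unchanged ones, so neither the call nor the lack of calls is firm.

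Prdm1-202 (chr10:44438293-44458687) is shorter than Prdm1-201 (chr10:44437177-44458748) at both ends, with 4025 against 5281 bases, 7 against 8 exons and 823 against 856 codons. Psi was given as 1 value per group for each segment of a gene. For an inner exon it is the fraction of transcripts that include it, and at alternative starts or ends the values of these Prdm1 and Eomes segments sum to about 1, so each was read as the share of transcripts that start or end there. The share ending at the Prdm1-202 end was 0.145 in Ag and 0.258 in Ag+Costim, and the share ending at the Prdm1-201 end 0.854 and 0.742. The share starting at the Prdm1-201 start was 0.849 and 0.702, and at the next start, that of Prdm1-202, 0.141 and 0.294. In Ag, Psi was thus 0.145 at the end and 0.141 at the start of Prdm1-202. Both lay above the limits that its 0 counts allowed, so Psi and the transcript counts disagreed for Ag. By Psi the difference with costimulation was smaller than by transcript shares. Eomes had the largest Psi difference of the group, also at its end. The share ending with Eomes-202 was 0.163 in Ag and 0.476 in Ag+Costim, and the share ending with Eomes-201 0.838 and 0.524. The transcript shares did not show this: Eomes-202 took 5.24, 3.72, 39.6, 32.6 and 4.62% in Ag and 57.1, 6.44, 10.5, 6.72 and 16.0% in Ag+Costim, with wide overlap (edgeR adjusted p = 1.0).

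The ends of these 4 transcripts are shown because the differences lie there. Each line is a stretch of 30 bases from the GENCODE vM21 transcript, with the polyadenylation hexamer AATAAA or ATTAAA in capitals. The hexamer starts 34 bases from the end of Eomes-202 (chr9:118485325-118485354, plus strand), 47 from the end of Eomes-201 (chr9:118486078-118486107) and 23 from the end of Prdm1-201 (chr10:44437177-44437206, minus strand). Neither hexamer is in the last 50 bases of Prdm1-202, whose last 30 are given (chr10:44438293-44438322). The last 50 bases of 50.2% of all 58797 protein-coding transcripts hold one. This length was set after the positions were seen. With 40 bases the hexamer of Eomes-201 falls outside, and 48.7% of all transcripts hold one.
Eomes-202: ccggtgctATTAAAtgaatttcaaagacaa
Eomes-201: tcatttttAATAAAtgtggttcaataaggg
Prdm1-201: aatgtaaATTAAAatataaatgttcatgct
Prdm1-202: acccagctgagcgtgtgtgcttccaaatgg

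Over the 10 genes, 66 segments had a Psi, and 11 differed by more than 0.1 between Ag+Costim and Ag, beside 7.39% of all 115403 segments. They lay in Zeb2 (5 of 8), Prdm1 (4 of 4) and Eomes (2 of 9), and Tcf7, Lef1, Id2, Id3, Tbx21, Bcl6 and Bach2 had none. This limit was chosen after the values were seen. Past 0.05 there were 20 of 66, beside 19.1% of all segments, now with 2 in Tcf7, 2 in Bach2 and 1 in Bcl6. In Zeb2 the largest was a segment of 3 bases at an alternative acceptor (chr2:45017466-45017468), with 0.876 in Ag and 0.617 in Ag+Costim. Prdm1, Bcl6 and Zeb2 had the lowest CPM of the 10 genes in Ag. The largest in Tcf7 was a skipped exon (chr11:52258853-52258945), with a Psi of 0.709 in Ag and 0.609 in Ag+Costim. With 1 value per group these differences have no replicate error.

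**Figure D4:**
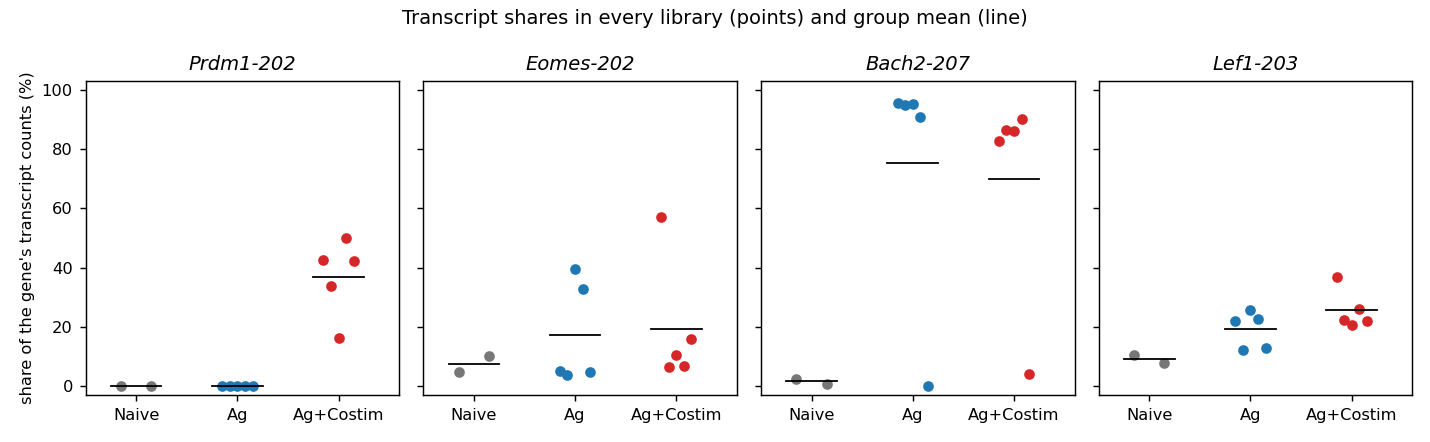
Points show the share, in percent of the gene's transcript counts, of 4 transcripts in each library, and lines the group means. Prdm1-202 was assigned no counts outside Ag+Costim, although Psi was above 0 at its start and end in Ag. Bach2-207 is near all or near none of the counts in single libraries.

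Bach2 showed how these shares can swing. Bach2-207, which starts at 32417435 on chromosome 4, took 90.8 to 95.6% of the Bach2 counts in Ag 1 to 4 and 82.9 to 90.2% in Ag+Costim 1 to 4, but 0% in Ag 5, 4.19% in Ag+Costim 5 and 0.821 and 2.39% in Naive. Bach2-202, with an earlier start at 32238804 and the same coding length of 2517 bases, took 99.4% in Ag 5 and 95.0% in Ag+Costim 5. Lef1-203 took 19.1% ± 6.08 of Lef1 in Ag, 25.6% ± 6.57 in Ag+Costim (SD, n = 5 each) and 9.06% ± 1.99 in Naive (SD, n = 2), which did not pass.

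Related genes were counted in the same comparisons. Of all tested genes, 53.1% passed between Ag+Costim and Ag (26.6% higher), 46.7% between Ag and Naive (24.2%) and 52.3% between Ag+Costim and Naive (26.9%). These shares stand beside the list counts that follow. Of 11 other factors of naive or memory cells, 8 were lower and 2 higher in Ag+Costim than in Ag, with a median log2 fold change of -0.64 beside -0.0488 over all genes. Foxo1, a forkhead factor of quiescent T cells, fell by 2.05 (SE 0.11), from 226 to 54.4 CPM. Satb1, a chromatin organizer, fell mainly with antigen, by 2.17 (SE 0.20), from 590.4 CPM in Naive to 131 in Ag. Myb rose with antigen (9.84 to 100.7 CPM) and fell with costimulation (56.2 CPM). Between Ag and Naive 3 of the 11 were higher and 7 lower, and between Ag+Costim and Naive 2 and 8.

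Of 14 other effector factors, 10 were higher and 2 lower with costimulation (median 1.40). Bhlhe40 rose by 3.80 (SE 0.36), from 9.42 to 131 CPM. Irf4, a factor induced by receptor signalling, rose in both steps (means of 0.970, 7.27 and 25 CPM), and Maf fell by 1.88 (SE 0.42). Between Ag and Naive 4 were higher and 5 lower, and between Ag+Costim and Naive 9 and 1.

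Surface and effector genes were counted in the same way, without a test of whether the factors act on them. Of 7 surface genes of naive and memory cells none was higher and 6 were lower with costimulation (median -1.53). Slamf6, a receptor of the SLAM family, fell by 1.68 (SE 0.11), from 1202.5 to 374.5 CPM, after a rise from 288 CPM in Naive. Between Ag and Naive 3 of the 7 were higher and 3 lower, and between Ag+Costim and Naive 1 and 5. Of 11 effector genes, 6 were higher and 2 lower with costimulation (median 0.95), 4 and 2 between Ag and Naive, and 7 and 1 between Ag+Costim and Naive. Gzmb (granzyme B) stood at 7.5, 77.7 and 475.5 CPM in Naive, Ag and Ag+Costim. Ifng (interferon gamma) was above Naive in both groups but had a lower mean with costimulation, at 0.771, 16.0 and 9.03 CPM. Klrg1, a marker of terminal effector cells, was scarce at 2.89 CPM in Ag and 14.8 in Ag+Costim, a rise of 2.38 (SE 0.35).

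The genes whose pattern over the 12 libraries was most like that of each factor were found among 8446 other protein-coding genes, by the root mean square difference of centred log2 CPM. Hspbap1 (0.168) was among those that followed Tcf7, which itself varied by 0.729. Cd69 (0.182) and Prickle3 (0.175) followed Lef1, Lair1 (0.210) followed Id2, and Dapl1 (0.271) and Gstp3 (0.249) followed Id3. Mtbp (0.190) followed Eomes, Washc1 (0.246) followed Bcl6 and Klhl24 (0.246) followed Bach2. The nearest to Prdm1, Kcnk5, differed by 0.596 where Prdm1 varied by 2.04.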

How the data were processed

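Sorted CD8+ T cells were sequenced as 12 libraries of 100-base single reads (SMART-Seq v4). The authors aligned reads to mm10 with HISAT2 2.1.0 and deposited gene and transcript counts from StringTie 2.1.0, estimated from coverage and not normalized. The deposited FPKM values were made by the authors with StringTie per transcript and were summed here per gene symbol. The deposited Psi values are fractions given by Whippet, 1 per group. The deposited percent aligned and complexity of reads were not used in a result, and columns with the authors' own Psi differences and probabilities were not used.

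Groups came from the sample labels, and the study describes replicates as biological. Counts were fitted with edgeR 4.0.16 in R 4.3.3: TMM scaling, filterByExpr, all 12 libraries, 1 term per group, robust quasi-likelihood test, two-sided, Benjamini-Hochberg adjustment over 18817 genes, threshold 0.05. SE is the log2 fold change divided by the root of F. Transcript shares were tested with edgeR's diffSpliceDGE. Both were tested on simulated data. CPM values use TMM library sizes, and 26345 unannotated entries (0.0508% to 0.121% of counts) were left out. SMART-Seq v4 does not mark strand and the counting's use of strand is not given in the sources used here, so Tcf7, Lef1, Eomes, Bcl6, Zeb2 and Bach2, which overlap other annotated genes, may hold some of their reads.

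The members and lists were chosen with earlier results of these data known. Named were all 10 members, up to 4 called genes with the largest change per list, the 2 most alike genes per member with a mean log2 CPM above 3, and called transcripts. Bach2, Eomes, Lef1 and Prdm1-201 transcripts, Psi segments, Sdc1 and Jchain were added after their values were seen. Alternatives were upper-quartile scaling, DESeq2 1.42.0, limma 3.58.1 on log2(FPKM + 1) and log2(FPKM + 0.1), no filter, a length correction, a replicate block, a covariate of Y-linked genes, fits of 2 groups and leaving out each library. Some genes that these rules name are not reported here.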

Additional observations from a re-analysis of the deposited data

Results flagged for a closer look

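Bcl6 in Ag+Costim 4 stood at 8.91 CPM, far from the other 4 libraries of its group (3.61 to 4.93 CPM). Its gap to the nearest was 0.751 of the group's range, above Dixon's 95% critical value of 0.71. Among the 20 groups of 5 libraries examined (10 factors in Ag and Ag+Costim) this was the only one past that value, and chance alone gives about 1 in 20. The library also had the highest myeloid marker sum of its group (259 CPM), whose part was not tested.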

How the results depend on the processing

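Over 21 alternatives in each comparison, 612 values of the 10 factors kept their direction and their side of the threshold, and the 9 calls between Ag+Costim and Ag held under all of them. Some alternatives left out a library of the group not compared, which barely moved the fold change. Bcl6 between Ag and Naive, for example, stayed at -2.29 or -2.3 without any 1 Ag+Costim library. The 612 values are therefore not all separate checks. Prdm1 between Ag and Naive, not called, turned from -0.45 to 0.28 without Naive 1 (-0.93 to 0.28 over all libraries left out), and Zeb2 between Ag+Costim and Naive, also not called, turned from -0.32 to 0.29 with the gene length correction. The cause was not tested. The other changes were 1 call lost (Eomes without Naive 2) and 15 gained, of Zeb2 between Ag and Naive and of Id3 and Bcl6 between Ag+Costim and Naive. All genes called between Ag and Naive numbered 5713 (without Naive 2) to 9569 (without Ag 4) with 1 library left out, against 8792. Prdm1 between Ag+Costim and Naive was 3.79, with 1.94 on log2(FPKM + 1) and 4.51 without Naive 1. Transcripts of the factors called numbered 1 to 2 between Ag+Costim and Ag (2 without Ag+Costim 5, which added Bcl6-202) and 0 to 2 between Ag and Naive (2 without Ag 5, both of Bach2). By CPM per kilobase of exon 15 of 30 positions in the order of levels were the same. The deviations of same-numbered Ag and Ag+Costim libraries correlated by 0.0159 to 0.0951. Values this small cannot decide whether these libraries were paired. Ag 1, Ag 2 and Ag 3 each correlated best with the library of their own number (0.0951, 0.0657 and 0.045). Ag 4 and Ag 5 each correlated best with a library of another number. With the replicate block 9736 genes were called between Ag+Costim and Ag against 9985, and 2 transcripts of the factors between Ag and Naive. The block also made the calls of Zeb2 between Ag and Naive (-1.28, edgeR adjusted p = 0.0434) and of Bcl6 between Ag+Costim and Naive (-0.92, edgeR adjusted p = 0.0142). With 2 Naive libraries, comparisons with Naive rest on little replication, and Prdm1, Bcl6 and Zeb2 on few counts. Sex-linked RNA varied within each group. Xist ran from 0.823 to 248.4 CPM in Naive, 11.4 to 457.8 in Ag and 1.31 to 148.4 in Ag+Costim. The Y-linked Ddx3y ran from 1.2 to 101.7, 0.144 to 34.2 and 0 to 35.1 CPM.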
